A study of Mus musculus with 4 samples.

Results

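Basal nuclei of the adult mouse stria vascularis (SV) were described here as 168 of the 11057 barcodes (1.52%, exact Clopper-Pearson 95% interval 1.30 to 1.77%) in a single nucleus RNA-Seq (snRNA-Seq) capture, which was 1 of 4 captures with 14387 barcodes in all. A barcode was taken as a basal nucleus when it held at least 200 genes, at least 5% of its unique molecular identifiers (UMIs, each standing for 1 captured transcript) came from the nuclear RNA Malat1, and the UMIs of Cldn11, Tjp1, Col11a2 and Nr2f2 summed to at least 3. That sum also had to be at least 2 times the sum over Met, Pax3, Nrp2 and Pde1c (intermediate cell genes) and over Lrp2, Kcnq1, Esrrb and Atp13a5 (marginal cell genes), with at most 1 UMI of the spindle and root cell genes Slc26a4 and P2rx2 and at most 3 UMIs of the fibrocyte genes Slc4a11, Otor, Dcn and Lum. All captures were of SV dissected at postnatal day 30 (P30) from mice of the CBA/J strain, untreated and without a genetic change in the labels, and tissue of several mice was pooled for each suspension. The other 3 captures were of whole cells. The labels do not tie captures to animals, but the supplementary methods give a number of mice for each cell capture and speak of capture dates, so p-values across them measure the spread between captures of pooled mice and not between single animals.

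Basal cells are the flat cells on the lateral side of the SV, between the intermediate cells and the fibrocytes of the spiral ligament. Tight junctions built on claudin 11 join them into a barrier, and gap junctions of connexin 26 and connexin 30 couple them to the intermediate cells and to the fibrocytes, so that potassium can pass between them. They derive from mesenchyme, whereas marginal cells are epithelial and intermediate cells are melanocyte-like.

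The nucleus capture held 22332501 UMIs, with a median of 1561 UMIs and 727 genes in a barcode. The cell captures held 2811309, 8113494 and 8340882 UMIs in 392, 1358 and 1580 barcodes. The basal nuclei together held 280839 UMIs, with a median of 1361 UMIs and 655 genes, and they ranged from 980 to 8652 UMIs. They were set beside 3068 marginal nuclei, 1481 intermediate nuclei and 25 nuclei that passed a fibrocyte gate, all drawn from the same matrix with the roles of the gating genes exchanged. Median depth was 1442.5 UMIs in the marginal, 1485 in the intermediate and 1837 in the fibrocyte-gate nuclei. With 1 capture of nuclei there was no replicate and no test between nuclei, and the intervals given for levels (exact Poisson, 95%) and shares cover counting error only.

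Several barcodes stood apart. The deepest of the 168, with 8652 UMIs, held 63 UMIs of Mbp, 43 of Mobp, 15 of Mog and 12 of Mag, all genes of myelin. Its basal score came from 62 UMIs of Cldn11, which myelinating oligodendrocytes also express, and 4 of Tjp1, and it held no UMI of Col11a2, Nr2f2, Ebf1 or Gm12153. The other 167 nuclei together held 4 UMIs of Mbp and none of Mobp, Mog or Mag, so counts are also given without this barcode. Hemoglobin transcripts were a median of 0.350% of UMIs in a basal nucleus, close to the 0.330% of marginal and 0.302% of intermediate nuclei, but 5 of the basal nuclei carried 90.7% of the 10673 hemoglobin UMIs. Barcodes with the highest Scrublet scores were marked as doublets up to a number set in advance, at 0.8% per 1000 barcodes. That number came to 8.56% of barcodes with at least 200 genes in the capture. Of the basal nuclei 2 (1.19%) were marked, and neither was removed. The gate leaves out barcodes with mixed marker genes, so the lower share follows in part from the rule and does not measure doublets among members. The nucleus capture shared 7, 26 and 32 barcode sequences with the cell captures, of which 1 was a basal nucleus.

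The 4 gating genes chose the nuclei, so their levels are a description. Cldn11, the claudin of the basal cell barrier, was read in 157 of 168 nuclei with 534 UMIs and reached 1901 CPM (UMIs scaled to a group total of 1000000, interval 1744 to 2070). Its level was 203 CPM in marginal, 63.7 CPM in intermediate and 227 CPM in fibrocyte-gate nuclei. Tjp1, which encodes the scaffold protein ZO-1 of tight junctions, was read in 83 nuclei and reached 474 CPM. Col11a2, a chain of fibrillar collagen XI, was read in 96 nuclei at 506 CPM, and Nr2f2, the orphan nuclear receptor COUP-TFII, in 69 nuclei at 303 CPM. Cldn11 carried most of the gate, since in 101 nuclei it gave at least as many UMIs as the other genes of the score together, and 16 nuclei held only 1 of the 4 genes, 78 held 2, 63 held 3 and 11 held all 4. The score was low in most nuclei: 49 were at the limit of 3, 51 were at 4 and only 10 reached 10 or more. A further 62 barcodes met the remaining limits with a score of 2, and their levels ran beside those of the 49 at the limit as 507 and 640 CPM for Gm12153, 1985 and 2162 CPM for Enah, 2006 and 2873 CPM for Ebf1 and 669 and 924 CPM for Gsn. With the score Gsn went from 242 CPM at a score of 1 to 777 CPM at 4 and 1766 CPM at 5 or more, and Apod from 2030 to 3497 and 5733 CPM, while Enah and Ebf1 were at 2063 and 2720 CPM at 4 and at 2142 and 1840 CPM at 5 or more. The median mitochondrial share of UMIs was 1.81, 1.52, 1.91, 6.53 and 8.37% at scores of 1, 2, 3, 4 and 5 or more. Its part in these levels was not tested.

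**Figure D1:**
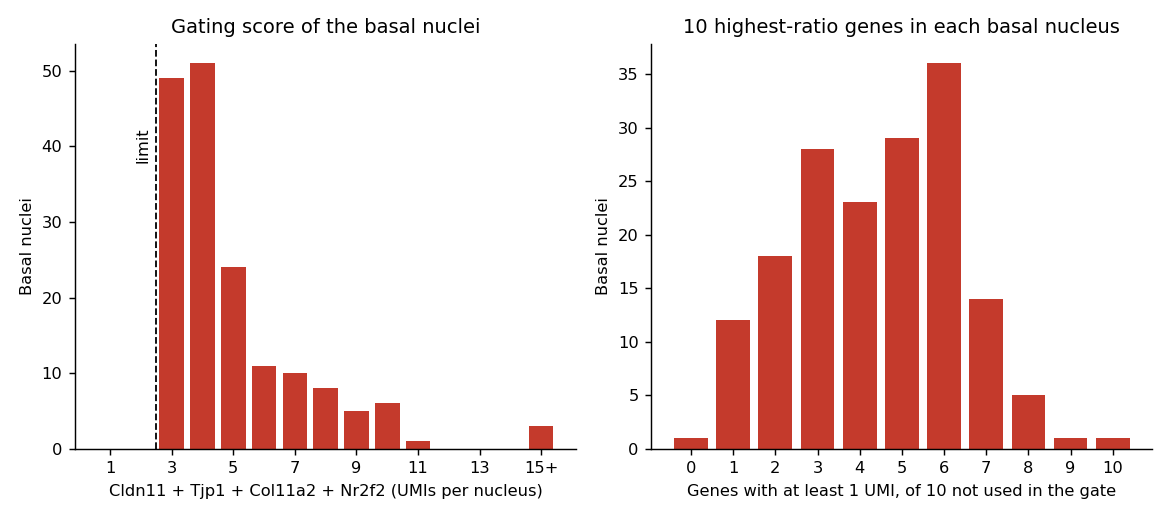
Number of basal nuclei (y axes) by gating score (left, summed UMIs of the 4 basal genes, with the limit as a dashed line) and by how many of the 10 highest-ratio genes outside the gate held a UMI (right). Scores of 3 (49 nuclei) and 4 (51 nuclei) were the most frequent, and the median in the right panel is 5 genes.

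Beyond the gate, 88 of the 1160 non-gating genes with at least 30 UMIs in basal nuclei (7.59%) were at least 2-fold above each of the marginal, intermediate and fibrocyte-gate nuclei. Without the barcode that held myelin genes the count was 84. Against the marginal and intermediate nuclei alone it was 197 (17.0%). Because these nuclei were chosen by other genes of the same libraries, the counts describe the group and are not a test. In each ratio below a comparison group was counted as holding at least 3 UMIs, which for the 25 fibrocyte-gate nuclei (52865 UMIs) amounts to a level of 56.7 CPM, so this small group set most of the ratios.

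Several of the genes with the highest ratios encode proteins of the cytoskeleton, and they are set together here for their known roles after the ratios were seen. Enah, an actin regulator of the Ena/VASP family that acts at cell junctions and leading edges, was read in 90.5% of basal nuclei with 597 UMIs and reached 2126 CPM (1959 to 2303). The level was 555 CPM in marginal, 210 CPM in intermediate and 511 CPM in fibrocyte-gate nuclei, and no other nuclear gene of those past 2-fold had as many UMIs. Gsn, which encodes the filament-severing protein gelsolin, reached 1293 CPM (1163 to 1433) against 83.6, 76.5 and 227 CPM in the same order. Actn1, the crosslinker alpha-actinin 1, reached 755 CPM (657 to 864) against 129, 53.9 and 75.7 CPM. For each of these 3 genes the interval in basal nuclei lay above the levels of every comparison group. Add3, which encodes gamma-adducin of the spectrin and actin network under the membrane, was at 620 CPM, 3.64 times the next level. Dync1i1, an intermediate chain of the motor cytoplasmic dynein, was at 377 CPM and 6.65 times.

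Fat2, Plekha7 and Kirrel3, also among the highest ratios, encode proteins of cell adhesion. Of the 54 genes of the adhesion list, only 7 reached 30 UMIs in basal nuclei. None of these was past 2-fold, beside 7.59% of all genes with at least 30 UMIs. Fat2, a giant cadherin, was read in 38.1% of basal nuclei and reached 363 CPM (296 to 441), against 35.1 CPM in marginal, 21.5 CPM in intermediate and 56.7 CPM in fibrocyte-gate nuclei. Plekha7, a protein of the zonula adherens, was at 399 CPM and 4.01 times the next level. Kirrel3, an immunoglobulin adhesion molecule of the nephrin-like family, was at 612 CPM and 3.36 times the marginal level. The 3 genes were thus well above the other groups at levels below that of Enah.

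Signaling genes past 2-fold included ligands and receptors. Bmp6, a ligand of the bone morphogenetic protein family, was read in 39.9% of basal nuclei and reached 417 CPM (345 to 499), against 36.2 CPM in marginal, 22.2 CPM in intermediate and 113 CPM in fibrocyte-gate nuclei. On the genome it overlaps the antisense genes 4930579J19Rik and Txndc5. Adra1b, the alpha-1B adrenergic receptor, was at 203 CPM with 57 UMIs and was listed at 0 in the fibrocyte-gate nuclei. Cacna2d3, an auxiliary subunit of voltage-gated calcium channels, was at 221 CPM and 3.89 times the next level, and Peli2, a ubiquitin ligase of Toll-like receptor signaling, at 253 CPM and 4.46 times. In cells Adra1b (log2 fold change 6.12) and Peli2 (2.41) were higher in basal cells, and Bmp6 and Cacna2d3 were not tested.

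Genes of metabolism and other enzymes were also among the highest ratios. Insig1, which retains the sterol sensor SCAP in the endoplasmic reticulum, was at 199 CPM and 3.51 times the next level. Nudt4, a hydrolase of diphosphoinositol polyphosphates, was at 509 CPM and 3.85 times, Cpa6, a secreted carboxypeptidase, at 310 CPM and 5.46 times, and Xpnpep1, an aminopeptidase that cuts before proline, at 278 CPM and 4.89 times. Ankrd44, a subunit of protein phosphatase 6 complexes, was at 221 CPM and 3.80 times. The coding genes 5430416O09Rik (363 CPM), Mroh3 (310 CPM), 1700011I03Rik (182 CPM) and 5730559C18Rik (178 CPM), and the genes Gm830 (338 CPM) and Gm26908 (296 CPM), were 3.14 to 6.40 times the next level. Of the 25 genes with the highest ratios, 24 were spread over many nuclei.

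The highest ratio belonged to Gm12153 (ENSMUSG00000087172), a long intergenic non-coding RNA at chr11:43959089-44134987 on the plus strand of mm10. It held 206 UMIs in 57.1% of basal nuclei and reached 734 CPM (637 to 841), against 41.0 CPM in marginal and 27.1 CPM in intermediate nuclei, and 1 UMI (18.9 CPM) in fibrocyte-gate nuclei. The level was 12.9 times that of 3 UMIs in the fibrocyte-gate nuclei and 17.9 times the marginal level. After each nucleus was thinned to 1000 UMIs, which kept 162 basal, 3006 marginal and 1437 intermediate nuclei and left out 6, 62 and 44, Gm12153 was read in 45.7% of basal nuclei, 2.66% of marginal and 2.44% of intermediate nuclei. In the same thinned nuclei Enah was read in 77.8% of basal, 40.4% of marginal and 16.1% of intermediate nuclei, and Gsn in 64.8%, 6.62% and 7.17%. The shares therefore differed between groups at equal depth as the levels did.

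**Figure D2:**
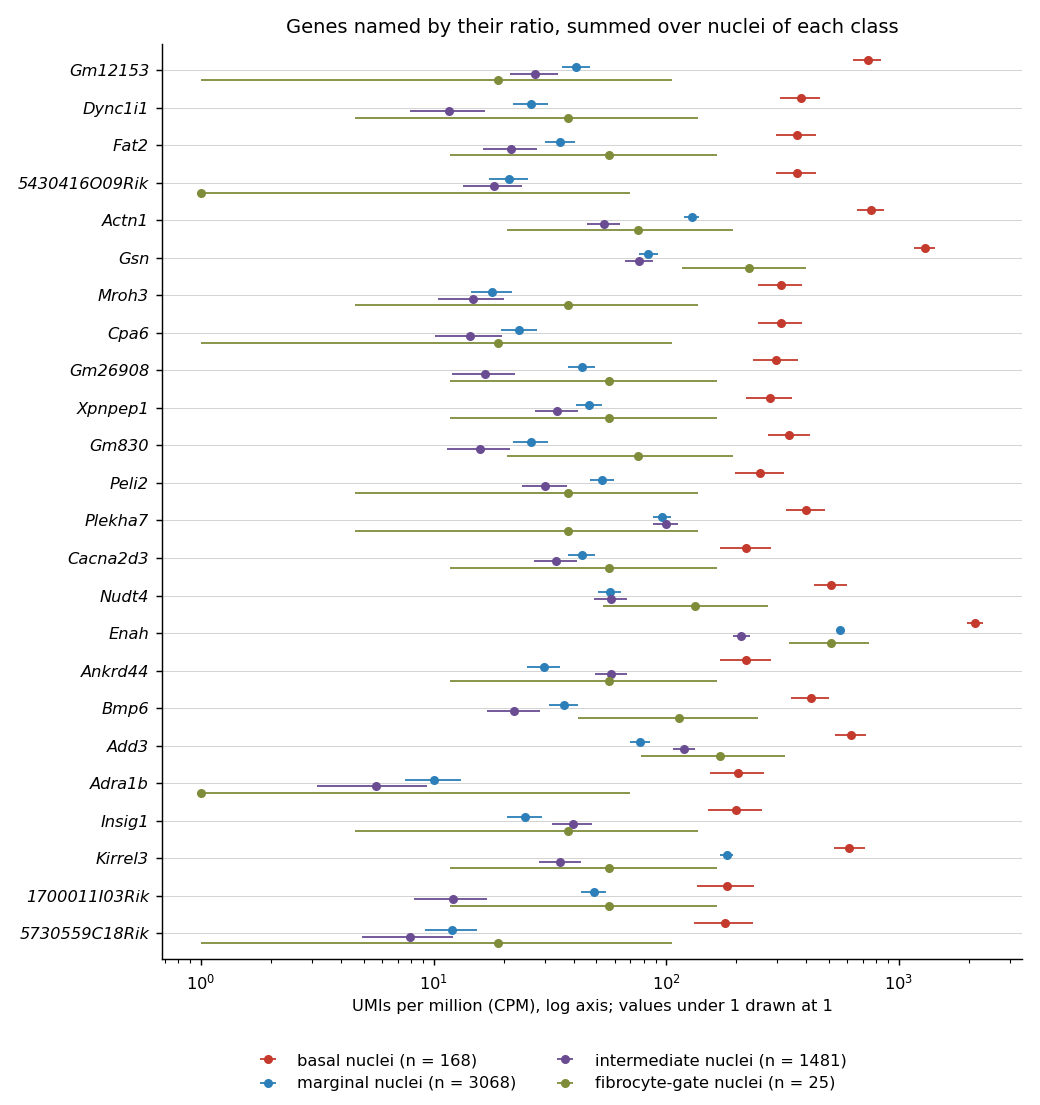
Levels (CPM, log axis) of 24 genes with the highest ratios in basal, marginal, intermediate and fibrocyte-gate nuclei, with exact Poisson 95% intervals as bars and values under 1 drawn at 1. The basal points sit to the right of the other 3 groups for every gene, and the widest bars belong to the 25 fibrocyte-gate nuclei.

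The 10 genes with the highest ratios among these 24 were then followed in single nuclei. A basal nucleus held UMIs of a median of 5 of them, 137 of 168 (81.5%) held 3 or more, and 1 held none. Among marginal nuclei 59.3% held none and 5.28% held 3 or more, among intermediate nuclei 72.2% and 3.24%, and 11 of the 25 fibrocyte-gate nuclei held none. These genes were picked for their levels in the same nuclei, so the counts are a description and do not show that the genes occur together.

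Promoter sequences from RefSeq (GRCm38.p6), 250 bases before each start, were searched on both strands for the hexamer AGGTCA, which nuclear receptors such as Nr2f2 bind. Of the 88 genes 65 matched an entry, with 85 windows, of which 13 (15.3%) held the hexamer, against 14.0% of all 32851 windows. The palindromic EBF motif was in none of the 85 and in 0.779% of all windows, the Sox motif ACAAAG in 12.9% against 16.5%, and the E-box CACCTG in 14.1% against 17.2%, so the share of windows with each motif was near or below that of all windows. The promoter of Cldn11, which gave most of the gate, is shown with those of Insig1 and Mroh3, which were among the 25 genes with the highest ratios, had a single start and held the hexamer. Their windows are chr3:31149670-31149919 on the plus strand for Cldn11, chr5:28071162-28071411 on the plus strand for Insig1 and chr1:136212821-136213070 on the minus strand for Mroh3. Capitals mark the hexamer, which lies 105 bases before the start of Insig1 and 51 bases before that of Mroh3 and is not in this window of Cldn11.
Cldn11: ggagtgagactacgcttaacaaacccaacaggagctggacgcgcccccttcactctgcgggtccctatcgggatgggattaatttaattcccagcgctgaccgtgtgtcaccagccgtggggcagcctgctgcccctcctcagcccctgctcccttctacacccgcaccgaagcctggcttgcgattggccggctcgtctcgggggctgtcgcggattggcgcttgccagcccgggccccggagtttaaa
Insig1: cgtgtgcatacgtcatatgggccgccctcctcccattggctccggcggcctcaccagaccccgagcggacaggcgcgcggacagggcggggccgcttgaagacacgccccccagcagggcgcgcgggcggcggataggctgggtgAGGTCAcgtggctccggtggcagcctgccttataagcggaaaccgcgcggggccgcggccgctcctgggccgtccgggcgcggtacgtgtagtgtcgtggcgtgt
Mroh3: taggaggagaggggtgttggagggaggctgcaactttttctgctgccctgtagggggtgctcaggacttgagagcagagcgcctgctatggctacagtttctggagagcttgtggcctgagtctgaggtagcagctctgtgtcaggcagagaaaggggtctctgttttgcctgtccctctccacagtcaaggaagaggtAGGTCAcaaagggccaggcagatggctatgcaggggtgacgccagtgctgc

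Some of the genes lay close together. Of the 88, 87 had a position in the GENCODE vM21 annotation of mm10, and pairs with a gap of at most 500000 bases were sought among them and Ebf1. Mroh3 and 5730559C18Rik (named Inava in that annotation) lie on the minus strand of chromosome 1 with a gap of 702 bases, Mroh3 downstream. Adra1b, Gm12153 and Ebf1 follow each other on chromosome 11, with a gap of 57878 bases between Adra1b and Gm12153 and of 482329 bases between Gm12153 and Ebf1. Xpnpep1 and Add3 lie on opposite strands of chromosome 19 with their starts facing each other across 100228 bases. The pairs Wnk4 and Becn1 (8542 bases) and Slc44a2 and Dock6 (444831 bases) completed the list.

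The 3 cell captures, which the nuclei were not chosen on, were used to ask whether the same genes were higher in basal than in marginal and intermediate cells. The same gate without the Malat1 limit gave 18, 60 and 49 basal cells (4.59, 4.42 and 3.10% of barcodes), with 268577, 612267 and 293909 UMIs. They were compared with 29, 120 and 81 marginal and 179, 599 and 563 intermediate cells. The test was edgeR's quasi-likelihood test on UMIs summed per capture and class, with the capture as a block and Benjamini-Hochberg adjustment over 6758 genes. The 2, 12 and 6 fibrocyte-gate cells of captures 1 to 3 were not compared, so a difference from that class was not tested in cells. For cells, the other classes and elsewhere mean marginal and intermediate cells only. Against the mean of the other classes, 1226 genes (18.1%) were higher and 1197 (17.7%) lower in basal cells at an adjusted p under 0.05. Against intermediate cells 1207 (17.9%) were higher and 1209 (17.9%) lower, and against marginal cells 1202 (17.8%) were higher and 1168 (17.3%) lower. Without TMM scaling the split against the mean was 1657 higher (24.5%) and 824 lower (12.2%), and with DESeq2, which tested 11955 genes, it was 1134 (9.49%) and 629 (5.26%). The share of calls that were higher thus moved from 50.6% to 66.8% and 64.3%. The median log2 fold change over all genes was -0.03 with TMM, 0.16 without it and 0.17 with DESeq2. The classes also differed in their mitochondrial share of UMIs, which was 21.8, 24.2 and 26.5% in basal cells of captures 1 to 3, 32.6, 36.1 and 34.2% in marginal and 35.6, 38.6 and 41.3% in intermediate cells. Malat1 was 3.97, 4.55 and 6.04% of UMIs in basal, 1.60, 1.51 and 1.50% in marginal and 3.88, 4.88 and 3.68% in intermediate cells, and the part of both shares in the gene groups below was not tested.

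Of the 88 genes from the nuclei, 86 were in the gene list of the cell captures and 68 passed its filter on low counts. Against the mean of intermediate and marginal cells, 64 of the 68 were higher in basal cells and 1 was lower, by edgeR at an adjusted p under 0.05. Cnp, Scml4 and Polr2m were not called. Whether the genes also exceed fibrocyte-gate cells, as the 88 did in nuclei, was not tested. Among all 1018 tested genes with at least 30 UMIs in basal nuclei, 422 were higher and 205 lower, with a median log2 fold change of 0.23 against 3.16 for the 68. Without the barcode that held myelin genes, 66 genes were tested, 64 were higher and the remaining 2 were not called. Of the 155 tested genes that were 2-fold above marginal and intermediate nuclei alone, 148 were higher and 2 lower. Across the 220 genes that were higher in basal nuclei by more than 1 on the log2 scale, 206 were also higher in basal cells of each capture, and of the 51 that were lower, 44 were lower in each.

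**Figure D3:**
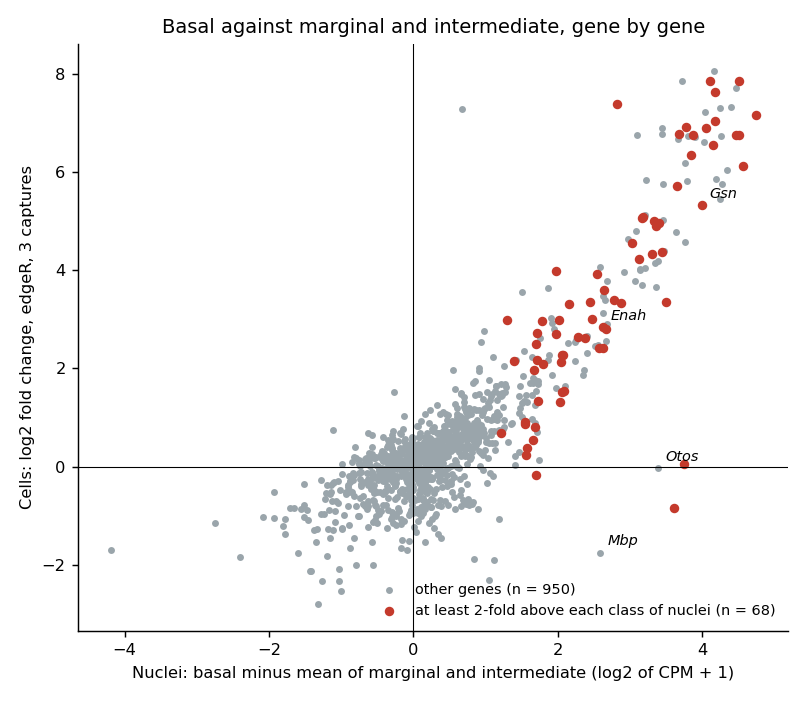
Log2 difference between basal and the mean of marginal and intermediate nuclei (x axis) against the log2 fold change in basal cells from edgeR (y axis) for 1018 genes, with the 68 tested genes past 2-fold in red and the others in gray. The x axis is on the log2(CPM + 1) scale. All but 2 of the red points lie above 0 on both axes, Scml4 being the one closer to 0, and the red point at the label of Otos is Cnp.

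Of the cytoskeletal and adhesion genes named above, Fat2, Actn1, Gsn, Enah, Add3 and Plekha7 were higher in basal cells, and Kirrel3 and Dync1i1 were not tested. Fat2 was at 384, 477 and 347 CPM in basal cells of captures 1 to 3, and between 1.13 and 6.72 CPM in the other classes, a log2 fold change of 6.77 (SE 0.19, edgeR adjusted p = 1.47e-46). Actn1 was at 1623, 1561 and 1368 CPM in basal, 61.5, 82.4 and 70.7 CPM in marginal and 31.6, 18.7 and 16.4 CPM in intermediate cells, a log2 fold change of 5.07 (SE 0.11, edgeR adjusted p = 2.67e-53). Gsn was at 2029, 1852 and 1599 CPM in basal cells and under 62 CPM elsewhere, a log2 fold change of 5.33 (SE 0.12, edgeR adjusted p = 1.53e-53). For these 3 genes every basal value lay above every value of the other classes. Enah was at 1486, 1911 and 1691 CPM in basal, 288, 285 and 321 CPM in marginal and 157, 143 and 143 CPM in intermediate cells, a log2 fold change of 2.84 (SE 0.10, edgeR adjusted p = 1.16e-40). The order of the classes for Enah was that of the nuclei, with marginal above intermediate and both below basal.

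Of the 25 genes with the highest ratios in nuclei, 17 were tested in cells, 16 were higher with log2 fold changes of 2.41 to 7.63 and edgeR adjusted p-values of at most 3.49e-08, and 1 was lower. Mroh3 had the highest of these fold changes, at 55.8, 34.3 and 40.8 CPM in basal cells and at most 0.672 CPM elsewhere (log2 fold change 7.63, SE 0.68). Its neighbor 5730559C18Rik was at 197, 194 and 150 CPM in basal cells and at most 2.69 CPM elsewhere (log2 fold change 6.90). Insig1 was at 380, 457 and 453 CPM in basal cells, above 18.5 to 64.4 CPM in the other classes (log2 fold change 3.60). Nudt4 was at 1441, 1326 and 1310 CPM, above 40.4 to 90.7 CPM elsewhere (log2 fold change 4.23). Marginal cells held no UMI of Mroh3, Twist1, Snai1 or Ebf2 in any capture, and intermediate cells held none of Col9a2, so the size of these fold changes is set in part by edgeR's prior count and is not a bound.

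The remaining 8 genes were abundant in nuclei but not tested in cells. Gm12153 held 4, 5 and 1 UMIs in basal cells (14.9, 8.17 and 3.40 CPM) and none in marginal or intermediate cells. Bmp6 held 3 UMIs in all basal cells, all in capture 2, although the basal nuclei held 117 UMIs at about the same total depth as capture 1. Kirrel3 was at 11.2, 19.6 and 23.8 CPM in basal cells against 612 CPM in nuclei, and Dync1i1 at 14.9, 27.8 and 13.6 CPM against 377 CPM. These levels were set beside each other across libraries that were processed separately, and nuclei and cells differ in which transcripts they hold. Cpa6, Cacna2d3 and 1700011I03Rik held 14, 3 and 12 UMIs in all basal cells, and Gm830 was not in the gene list of the cells.

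**Figure D4:**
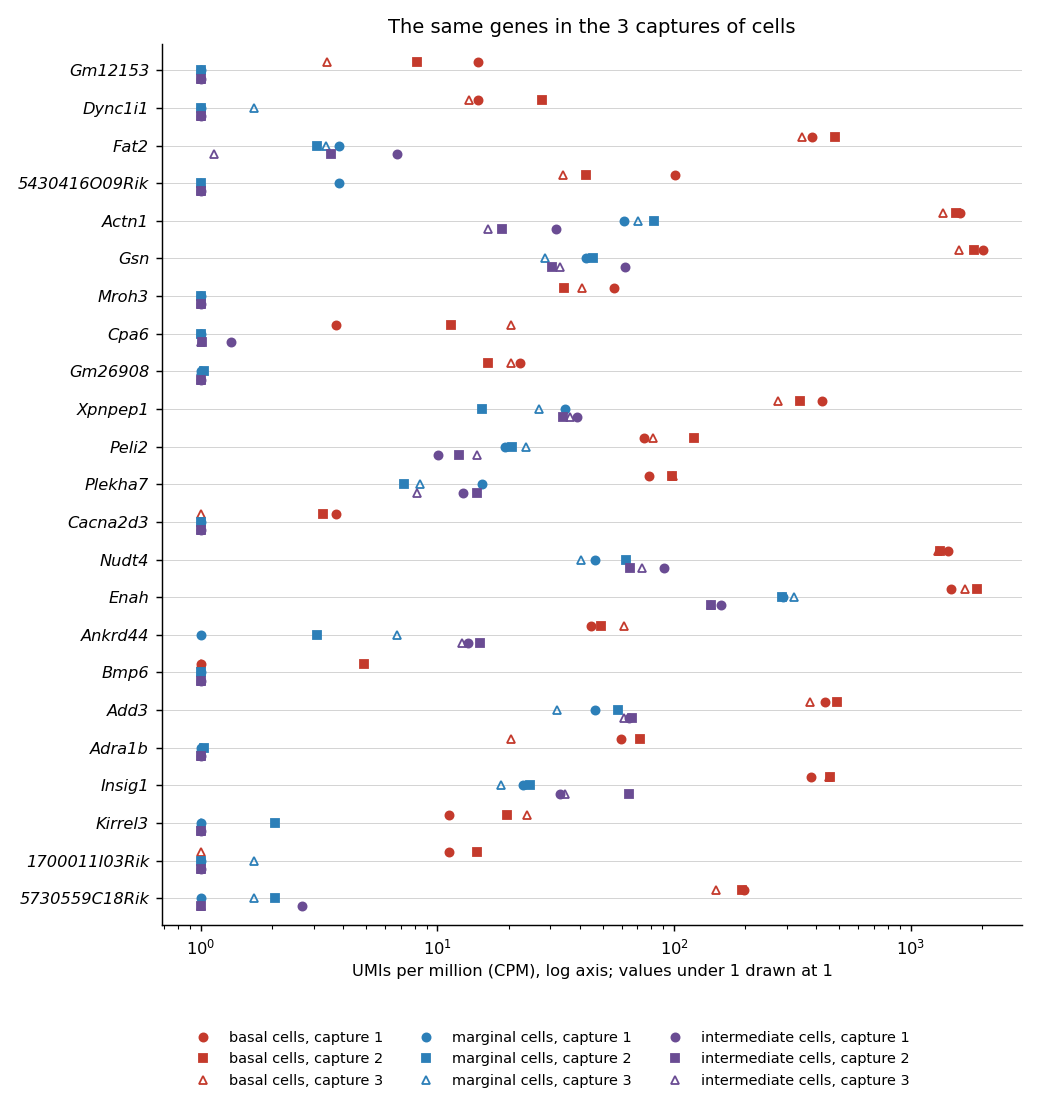
Levels (CPM, log axis, values under 1 drawn at 1) of 23 genes in basal, marginal and intermediate cells, 1 point for each of the 3 captures. The basal points lie above those of both other classes in each capture for the 16 tested genes that were higher.

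Gap junction genes, the best known link between basal cells and their neighbors, were at levels in basal nuclei near those of the fibrocyte-gate nuclei. Gjb2, connexin 26, was at 897 CPM (790 to 1015) in basal nuclei, 259 CPM in intermediate, 73.8 CPM in marginal and 776 CPM in fibrocyte-gate nuclei. Gjb6, connexin 30, was at 641 CPM (551 to 742), against 427, 86.7 and 776 CPM. In cells Gjb2 was at 3366, 3572 and 2201 CPM in basal cells, above 559 to 713 CPM in intermediate and 170 to 230.5 CPM in marginal cells (log2 fold change 2.91, edgeR adjusted p = 2.80e-41). All 3 tested genes of the 17 in the list (Gjb2, Gjb6 and Gjc3) were higher in basal cells, beside 18.1% of all genes tested, with a median log2 fold change of 1.74 beside -0.03. Only 2 of the 17 reached 30 UMIs in basal nuclei and neither was past 2-fold, beside 7.59% of all such genes. Gja1, connexin 43, had no UMI in basal nuclei.

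Tight junction genes other than the gating genes went in both directions. Of 37 listed genes 5 reached 30 UMIs in basal nuclei without the gating genes and none was past 2-fold, and of 15 tested in cells 3 were higher and 4 lower, with a median log2 fold change of -0.56. Over all genes tested 18.1% were higher and 17.7% lower, so 3 of 15 is near that share. The balance differed between the other classes, with 4 higher and 1 lower against intermediate cells and 2 higher and 7 lower against marginal cells. Without TMM scaling 5 of the 15 were higher and 3 lower, beside 24.5% and 12.2% of all genes. With DESeq2 2 of 26 were higher and 1 lower, beside 9.49% and 5.26%. The higher genes included Jam3, a junctional adhesion molecule (log2 fold change 4.39, 121 CPM in nuclei), and Ocln, which encodes occludin (2.15). The lower genes were Cldn9 (-1.84), Cgn (-1.79), F11r (-1.59) and Jam2 (-0.56), of which Cgn, F11r and Jam2 were not called by DESeq2. Magi2, a scaffold protein, was at 591 CPM in basal and 455 CPM in intermediate nuclei.

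Of 41 collagens, Col27a1, a fibrillar collagen, was the only one outside the gate with at least 30 UMIs in basal nuclei and was past 2-fold, at 231 CPM against 18.2 CPM in marginal, 13.9 CPM in intermediate and 75.7 CPM in fibrocyte-gate nuclei, and in cells its log2 fold change was 6.91. Of 4 collagens tested in cells, Col27a1 and Col9a2 were higher and Col5a3 was lower (median log2 fold change 2.98). Of 65 other matrix genes, 19 were tested in cells, 11 were higher and 3 lower (median 1.03), beside 18.1% and 17.7% over all genes tested. In nuclei, gating genes included, the 65 summed to 2717 CPM in basal and 9950 CPM in fibrocyte-gate nuclei. The 41 collagens summed to 1296 and 2005 CPM in the same order, so neither list was highest in basal nuclei. DESeq2, which tested more genes, called 8 of 21 collagens and 16 of 34 matrix genes higher, beside 9.49% of all genes it tested. Sparc, a collagen-binding glycoprotein, was at 466 CPM in basal nuclei and at 1340, 1231 and 969.7 CPM in basal cells against 37.0 to 88.0 CPM in the other classes (log2 fold change 4.01). Fn1, which encodes fibronectin, was at 346, 268 and 225 CPM in basal cells and at most 5.15 CPM elsewhere (log2 fold change 6.69), and the laminin gene Lamc1 had a log2 fold change of 2.55. Sparcl1 was lower in basal cells (log2 fold change -1.26). Otos, which encodes otospiralin of fibrocytes, was at 723 CPM in basal nuclei with 163 of 203 UMIs in 1 nucleus, was at 144 CPM without it, and was not called in cells.

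Transcription factors of mesenchyme and neural crest formed the list with the most genes higher in basal cells, 24 of 35 tested, with 8 lower, beside 18.1% higher and 17.7% lower over all genes tested. The median log2 fold change was 1.87 beside -0.03. In nuclei the 60 listed factors, 1 gating gene included, summed to 10697 CPM in basal and 11633 CPM in fibrocyte-gate nuclei. Ebf1, a helix-loop-helix factor, was at 2332 CPM (2157 to 2518) and in 88.7% of basal nuclei, against 203 CPM in marginal and 164 CPM in intermediate nuclei, while fibrocyte-gate nuclei reached 2573 CPM. In cells Ebf1 was at 354, 421 and 378 CPM in basal cells and at most 7.68 CPM elsewhere (log2 fold change 6.67, SE 0.21, edgeR adjusted p = 9.37e-35). Ebf1 was thus higher in basal than in marginal and intermediate cells and nuclei, and basal nuclei did not exceed the fibrocyte-gate nuclei in it. Tbx18, a T-box factor, was at 310 CPM in basal nuclei and at 261, 335 and 262 CPM in basal cells against at most 3.84 CPM elsewhere (log2 fold change 7.31). Pou3f4, a gene of X-linked deafness, was higher in basal cells (log2 fold change 6.73) with 12 UMIs in basal nuclei, and Twist1, Ebf2, Snai1 and Sox8 were higher by 7.73, 7.30, 6.60 and 6.44. Foxp1, at 484 CPM and 2.13 times the next level, was the 1 factor past 2-fold in nuclei of 17 with at least 30 UMIs, a share near the 7.59% of all such genes. Among the 8 lower factors were Meis1 (-2.67), Lmx1a (-2.53) and Tbx3 (-2.27).

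Signaling lists were mixed, and their counts are to be read beside the 18.1% higher and 17.7% lower over all genes tested. Of 68 Wnt and BMP genes 20 were tested in cells, 9 were higher and 4 lower (median log2 fold change 0.33), with Fzd9 (3.76), Id3 (3.29) and Axin2 (1.81) highest and Bmpr1b (-2.71) lowest. Axin2 had no UMI in basal nuclei. Of 56 growth factor and receptor genes 19 were tested, 7 were higher and 5 lower (median -0.11, and 0.08 without TMM scaling). Pdgfra, the receptor for platelet-derived growth factor that marks many mesenchymal cells, was at 156, 206 and 197 CPM in basal cells and at most 1.98 CPM elsewhere (log2 fold change 7.54). Igfbp5, an IGF-binding protein, had a log2 fold change of 6.18, Tgfbr2 of 2.93 and Igf1r of 1.69, while the ligand gene Igf1 was lower (-2.32) and stood at 377 CPM in basal against 2166 CPM in marginal nuclei. Of 60 axon guidance genes 18 were tested, 7 were higher and 5 lower (median -0.14, and 0.05 without TMM scaling). Slit2, a secreted guidance ligand, was past 2-fold in nuclei at 644 CPM (554 to 746) against 303 CPM in fibrocyte-gate and 37.0 CPM in marginal nuclei, and in cells was at 48.4, 67.0 and 68.0 CPM in basal cells against at most 1.68 CPM elsewhere (log2 fold change 6.75). Efna5, an ephrin, was at 442 CPM in basal nuclei below 961 CPM in marginal nuclei, and was not called in cells.

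Of 54 adhesion genes 22 were tested in cells, 7 were higher and 7 lower, beside 18.1% and 17.7% over all genes tested (median log2 fold change -0.33). Cdh1, which encodes E-cadherin, was at 424 CPM in basal nuclei and at 711, 717 and 524 CPM in basal cells against 166 to 193 CPM elsewhere (log2 fold change 1.68, edgeR adjusted p = 5.87e-24). The integrin genes Itga10 (4.71) and Itgb8 (2.41) were also higher, while Epcam (-2.17), Nectin3 (-2.17) and Itga6 (-2.04) were lower. Ctnnb1, which encodes beta-catenin, was higher by 0.25 against the mean and lower against intermediate cells alone, and Ctnnb1 and Itga6 were not called by DESeq2. In cells Cdh1 was thus higher in the basal class whereas the epithelial adhesion gene Epcam was lower. In nuclei Cdh1 was not past 2-fold.

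Ion transport genes, which carry out potassium secretion in marginal and intermediate cells, were more often lower than higher in basal cells. Of 33 tested in cells 21 were lower and 6 higher against the mean of the other classes, with a median log2 fold change of -0.998. Over all genes tested 17.7% were lower and 18.1% higher, so the higher members were at about the share of all genes. Against a single class the numbers lower were 12 of 33 against intermediate and 16 of 33 against marginal cells, and DESeq2 called 14 of 44 lower against the mean, beside 5.26% of all genes it tested. None of the 14 members with at least 30 UMIs in basal nuclei was past 2-fold, beside 7.59% of all such genes. Slc12a2, the sodium, potassium and chloride cotransporter, was at 1097 CPM in basal nuclei against 4815 CPM in marginal nuclei, with a log2 fold change of -1.28 in cells. Atp1b1, which encodes the beta-1 subunit of the sodium pump, was lower as well (-0.998).

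Glucose and lactate genes were also lower, 15 of 18 tested beside 17.7% over all genes, with a median log2 fold change of -0.95, in cells whose mitochondrial share was lower as well. Pgam1 (-1.23), Ldhb (-1.03), Pkm (-0.77) and Aldoa (-0.53) were among them. Without TMM scaling 13 of the 18 were lower and 1 higher, beside 12.2% and 24.5% of all genes. With DESeq2 13 of 29 were lower and 3 higher, beside 5.26% and 9.49%. The 1 gene that was higher in the main edgeR fit was Slc2a1, the glucose transporter GLUT1, at 141.5, 150.3 and 91.9 CPM in basal cells against 11.8 to 42.3 CPM elsewhere (log2 fold change 2.45, edgeR adjusted p = 8.20e-19), with 14 UMIs in basal nuclei.

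Of 71 genes of hereditary deafness 32 were tested in cells, 13 were higher and 10 lower, beside 18.1% and 17.7% over all genes tested (median log2 fold change 0.18). The higher genes included Col9a2 (6.74), Pou3f4 (6.73), Coch (3.26) and Gjb2 (2.91), and the lowest were Bsnd (-2.68, not called by DESeq2), Lmx1a (-2.53) and Kcne1 (-2.52). Of 26 immediate-early and heat shock genes, which respond to tissue handling, 16 were tested, 8 were higher and 1 was lower (median 0.61). Klf4, which is also a factor of barrier epithelia, was at 618, 541 and 493 CPM in basal cells against at most 22.2 CPM elsewhere (log2 fold change 6.57) and at 85.5 CPM in basal nuclei. Btg2 (4.09), Egr1 (3.97) and Hspb1 (3.91) were higher too, and the part of dissociation in these values was not tested. Of 5 basal genes taken from earlier results of these data, 4 were tested and 4 were higher, which is not independent evidence.

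The most abundant transcripts of basal nuclei were in part those found in every class. Hbb-bs was at 18829 CPM in basal, 5520 CPM in marginal and 12513 CPM in intermediate nuclei and was read in 93.5%, 94.9% and 93.1% of them. Ptgds, a prostaglandin synthase, was read in 100% of basal and 99.9% of marginal nuclei, at 11416 and 16643 CPM. Dct, a melanin enzyme of intermediate cells, was at 2411 CPM in basal and 1904 CPM in marginal nuclei against 25002 CPM in intermediate nuclei. These genes were thus read in nuclei of all classes at the depth of this capture. Apod, an apolipoprotein of the lipocalin family, differed from them, at 4469 CPM (4225 to 4723) in basal nuclei, 321 CPM in marginal, 233 CPM in intermediate and 6413 CPM in fibrocyte-gate nuclei. In thinned nuclei Apod was read in 88.3% of basal, 22.1% of marginal and 17.3% of intermediate nuclei. In cells it was at 5667, 3902 and 3681 CPM in basal cells against 23.1 to 69.2 CPM elsewhere (log2 fold change 6.61, SE 0.12, edgeR adjusted p = 5.58e-60). The nuclear RNA Neat1, at 2475 CPM in basal, 1296 CPM in marginal and 151 CPM in fibrocyte-gate nuclei, was also higher in cells (log2 fold change 1.76). Zbtb20 (3333 CPM), Fth1 (5861 CPM), Hba-a1 (14923 CPM) and Hba-a2 (2186 CPM) completed the 10 highest when Malat1, which was part of the gate, and mitochondrial genes were left out. Of the mitochondrial genes mt-Nd1 (40639 CPM), mt-Cytb (33436 CPM), mt-Nd4 (20563 CPM), mt-Nd2 (7983 CPM), mt-Rnr2 (5882 CPM) and mt-Atp6 (5637 CPM) were also at these levels.

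The marker lists of the marginal, intermediate and fibrocyte classes each hold 4 gating genes, whose low level in basal nuclei was in part set by the gate. The 12 marginal markers summed to 2215 CPM in basal against 16613 CPM in marginal nuclei, led by Slc12a2 with Heyl at 0, and the 14 intermediate markers to 3287 against 37081 CPM, led by Dct with Pmel and Tyrp1 at 0. The 12 fibrocyte markers summed to 986 CPM against 11028 CPM in fibrocyte-gate nuclei and 136 CPM in both marginal and intermediate nuclei, led by Otos with Cpz and the gating gene Otor at 0. Without the gating genes the sums were 1698 CPM in basal against 8602 CPM in marginal nuclei for the marginal markers, and 3109 CPM against 32105 CPM in intermediate nuclei for the intermediate markers. For the fibrocyte markers they were 958 CPM in basal, 6734 CPM in fibrocyte-gate, 119 CPM in marginal and 124 CPM in intermediate nuclei, with 723 CPM of the basal sum from Otos, most of it in the 1 nucleus named above. The 12 endothelial markers summed to 89.0 CPM in basal, 47.8 CPM in marginal and 57.3 CPM in intermediate nuclei, led in basal nuclei by Eng at 53.4 CPM with Cldn5, Egfl7, Flt1, Kdr, Ptprb and Tie1 at 0. The 11 pericyte markers summed to 32.0 CPM, led by Anpep at 14.2 CPM with 6 at 0, and the 10 macrophage markers to 35.6 CPM, led by Cx3cr1 at 17.8 CPM with Aif1, C1qa, C1qb, C1qc and Cd68 at 0. The 9 B cell markers summed to 139 CPM in basal, 104 CPM in marginal and 96.5 CPM in intermediate nuclei, with Igkc and Ms4a1 among those at 0 in basal nuclei. Ighm led them at 64.1 CPM, with its 18 UMIs in 2 basal nuclei and 11 of them in 1. The 14 UMIs of Vpreb3 also lay in 2 basal nuclei. The 8 neutrophil markers summed to 221 CPM, led by Elane with its 28 UMIs in 1 nucleus. The 7 spindle and root markers summed to 74.8 CPM, led by Anxa1 at 46.3 CPM with Kcnj16 at 0, and the 7 osteoblast markers to 35.6 CPM with Ibsp, Phex and Sp7 at 0. The 8 Schwann markers summed to 1759 CPM, most of it from the barcode described above, with Prx among those at 0. The 8 erythroid genes summed to 38079 CPM.

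The share of mitochondrial transcripts divided the basal nuclei. Its median was 6.56% of UMIs, against 1.83% in marginal, 1.73% in intermediate and 2.34% in fibrocyte-gate nuclei, and the highest was 54.0%. The mitochondrial ribosomal RNA mt-Rnr2, named after its values were seen, was itself 1 of the 88 genes past 2-fold, with 1652 UMIs in 134 basal nuclei and 5882 CPM against 2051 CPM in marginal, 2521 CPM in intermediate and 2497 CPM in fibrocyte-gate nuclei. The 82 nuclei under 5% had a median of 1234 UMIs with 38.0% from Malat1, and the 86 nuclei above 5% had 1541.5 UMIs with 14.3% from Malat1 and 16.9% from mitochondria. Over the 168 nuclei the 2 shares, which are parts of the same total, had a Spearman correlation of -0.70. Levels outside the gate moved unevenly with it: Ebf1 was at 2982 CPM in the nuclei under 5% and 2306 CPM in those above, Slit2 at 824 and 638 CPM, and Cpa6 at 360 and 343 CPM. Gsn was at 952 and 1996 CPM, Enah at 1935 and 2903 CPM, Gm12153 at 584 and 1088 CPM, and Trak2, a mitochondrial transport adaptor, at 48.0 and 1006 CPM. These levels leave out mitochondrial genes, the barcode that held myelin genes was among the 82, and Trak2 was chosen after its values were seen. When only nuclei under 5% were kept, 51 genes were past 2-fold, and the part of the mitochondrial share in each level was not tested.

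**Figure D5:**
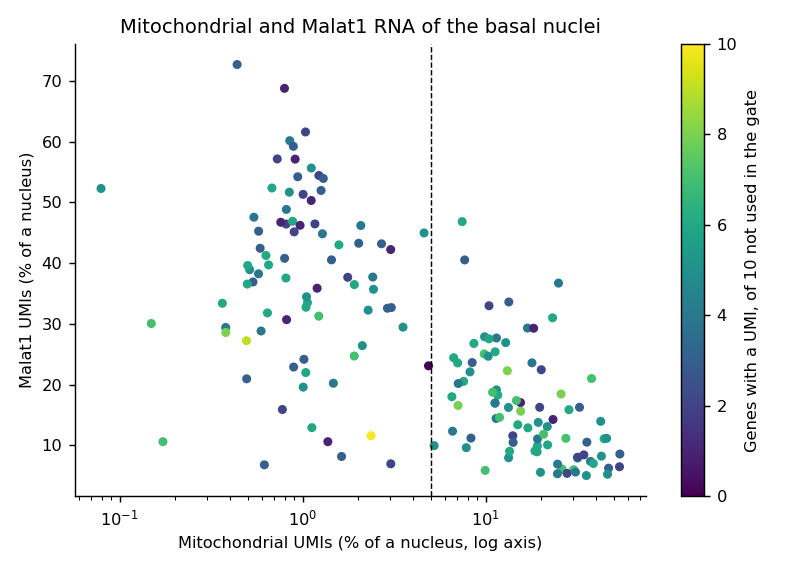
Share of UMIs from mitochondrial genes (x axis) against the share from Malat1 (y axis) in each of the 168 basal nuclei, with the 5% line dashed and the color giving how many of the 10 highest-ratio genes held a UMI. The Malat1 share tended to be lower where the mitochondrial share was higher (Spearman correlation -0.70). There were exceptions, such as a nucleus with 25.0% mitochondrial and 36.7% Malat1 UMIs.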

How the data were processed

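The authors pooled SV tissue of CBA/J mice at P30, made suspensions of cells or nuclei, and used the 10x Chromium platform. They deposited, per capture, a matrix of UMI counts per gene and barcode, made with Cell Ranger 2.0.0 and the mm10 genome per the submitters' processing notes and the methods. The 4 matrices of deposited counts were used as they stood, as raw counts without normalization or pooling. How intronic reads were counted, and why the nucleus matrix lists 48816 genes, is not given in the sources used here.

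Members of the basal group were chosen from their own measured UMIs, and the members, the gene lists and the tests were chosen with earlier results of these data known. UMIs were summed per group and divided by the group's total (CPM). A gene counted as 2-fold higher with at least 30 UMIs in basal nuclei and a CPM at least 2 times that of each comparison group, each of which was counted as holding at least 3 UMIs. Genes were named by rule: the gating genes, the 25 non-gating, non-mitochondrial genes with the highest such ratio, up to 4 members of each list with the highest CPM and those past 2-fold, and the 10 non-gating genes with the highest CPM, from which mitochondrial genes were set apart. Other list members were named after their values in cells were seen. Some genes that these rules name are not reported here, but they stay in the fits and counts.

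Cells were summed per capture and class and tested with edgeR 4.0.16 in R 4.3.3 (TMM, filterByExpr, robust quasi-likelihood fit, capture as block), with gating genes left out of the calls. DESeq2 1.42.0 was an alternative. Classes of 1 capture came from 1 suspension, which is the reason for the block. Over 5908 genes the 9 pairs of classes from the same capture had deviations from their class means that correlated at 0.0739 to 0.315. Captures differed by more than counting noise (chi-square over degrees of freedom 5.87 to 53.9). Doublets were scored with Scrublet (scanpy 1.11.5) and kept. Positions came from GENCODE vM21 on mm10 and promoters from RefSeq on GRCm38.p6. The fits were tested on simulated data.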

Additional observations from a re-analysis of the deposited data

Results flagged for a closer look

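Of the 5140 barcodes with at least 200 genes and Malat1 under 5% of UMIs, 36 met every other limit of the basal gate and entered none of the comparisons. They had a median of 1656.5 UMIs, of which 37.4% were mitochondrial. Cldn11 was at 1155 CPM in them, Apod at 2346 CPM, Enah at 908 CPM, Gsn at 637 CPM, Ebf1 at 448 CPM and Gm12153 at 200.4 CPM, each below its level in the 168 basal nuclei. The 10 genes followed in single nuclei were present with a median of 3 in these barcodes, and 19 of the 36 held 3 or more.

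Mbp, which encodes myelin basic protein, went in opposite directions in nuclei and cells. It was higher in basal nuclei by 2.59 on the log2 scale against the mean of marginal and intermediate nuclei, and lower in basal cells of each capture, by 1.02, 1.31 and 2.07. The difference between nuclei and cells was not tested, as there was 1 capture of nuclei. Of the UMIs in basal nuclei, 63 of 67 for Mbp lay in the barcode that held myelin genes. No basal cell in the 3 captures held 10 or more UMIs of Mobp, Mog and Mag together.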

How the results depend on the processing

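The number of basal nuclei was 68 with a score of at least 5, 49 when Cldn11 was left out of the score and 82 with mitochondrial UMIs under 5%, a limit chosen after seeing the data. The count of genes past 2-fold, 88 above, was 55 with a score of at least 5, 29 without Cldn11 in the score, 48 in thinned nuclei, 27 with at least 100 UMIs, 14 at 4-fold, 197 against marginal and intermediate nuclei alone and 51 with mitochondrial UMIs under 5%. Of the 25 genes with the highest ratios, 24 kept their direction under each alternative run. They were picked for high ratios in the same nuclei, so a kept direction is a description and not a test. The log2 ratios of these 24 were marked as moved in 93 results by gene and setting and as the same in 315. Gsn was marked as moved in 10 settings and as the same in 7. Leaving mitochondrial genes, hemoglobin and Malat1 out of the totals raised the log2 ratios by 0.38 against marginal, 0.13 against intermediate and 0.23 against fibrocyte-gate nuclei, and 119 genes were past 2-fold.

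In the cells, DESeq2 called 629 genes lower against the mean and 604 lower against intermediate cells, and without TMM scaling 1884 were higher and 707 lower against intermediate cells. Leaving out each capture in turn gave 868 to 1194 genes higher and 726 to 1146 lower against the mean, 850 to 1166 and 824 to 1139 against intermediate cells, and 807 to 1155 and 793 to 1178 against marginal cells, with the lowest counts without replicate 2, which held 60 of the 127 basal cells. Without the block for capture 1152 genes were higher and 1111 lower against the mean, 1128 and 1114 against intermediate cells, and 1120 and 1111 against marginal cells. Among called members of the gene lists no direction changed without TMM scaling or with DESeq2. Removing the block changed the call of Hba-a2 (log2 fold change -2.74, edgeR adjusted p = 0.498). It changed no other call among the 16 highest-ratio genes that were higher in cells and the 10 most abundant genes. Hba-a2 also lost its call with DESeq2 (-1.50, adjusted p = 0.325), and Hbb-bs (-1.54) and Hba-a1 (-2.53) gained one without replicate 2. Levels of transcripts under 30 UMIs in basal nuclei are imprecise, and the single capture of nuclei allows no error between animals.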
